A study of Phrynocephalus vlangalii with 2 samples.

Results

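Ion channels let potassium, sodium, calcium or chloride cross a membrane, and aquaporins do the same for water and, in some members, glycerol. Potassium channels set the resting potential of muscle and heart cells, voltage-gated sodium channels carry the upstroke of the action potential, and voltage-gated calcium channels couple it to contraction. Epithelial sodium channels and aquaporins move salt and water across lung and other epithelia, and chloride channels act both at the surface of muscle fibres and in endosomes and lysosomes.

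The genes described here are those whose annotation text names a potassium, sodium, calcium or chloride channel, a transient receptor potential channel or an aquaporin. They were chosen by that text alone, and names saying invertebrate or aquaporin TIP were left out, which removed 6 assembled genes under 3 names. This gave 133 of 58458 assembled genes, under 79 of 4819 names. Sodium-potassium pumps written Na+/K+ were also sought, and 0 assembled genes had that spelling. The lizards were adult Phrynocephalus vlangalii, a toad-headed lizard, of the Madoi and the Maqu population. Each population was represented by 1 RNA-seq library, a pool of RNA from liver, lung, heart and muscle. The series asks how this cold-blooded species lives at high altitude. With 1 library per population there is no replicate check, and each value compares these 2 libraries and not the populations. In pooled tissue, a smaller share of cells of one type and less RNA per cell cannot be told apart.

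Values are reads estimated by the authors, their RPKM (reads scaled for length and library size) for levels per length, and log2 ratios of Madoi over Maqu after scaling of library size. A call of higher or lower required 10 or more reads over both libraries, a difference of 2-fold or more, and a 95% counting interval without a ratio of 1. The libraries held 63636539 reads for Madoi and 66401014 for Maqu. Channels took 0.121% of the reads in Madoi and 0.109% in Maqu. The counting intervals cover counting error only. Summed over assembled genes with reads in Maqu, channel names with 1000 or more reads over both libraries had a median interval width of 0.23 on the log2 scale, and those with under 100 reads 2.26.

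Most channel names had similar reads in both libraries, and those that differed were found in both directions. Of 79 names, 8 were higher and 8 lower in Madoi (20.3% either way), while 5.89% of all 4702 names with Maqu reads were higher and 7.15% lower, 13% either way. The same shares of all names belong beside the counts called per family and per list given below, which rest on few names. A ratio within 1.5-fold was found for 57.0% of channel names and for 70.9% of all names. The median log2 ratio was 0.11 over channel names and 0.00 over all names. A 95% binomial interval of the channel median, -0.15 to 0.31, treats names as independent. It concerns the median of these names within these 2 libraries, not their spread and not a difference of the populations. The quartiles of the channel names were -0.36 and 0.58. Counted as assembled genes, 11 of 132 were higher and 12 lower, 17.4% in all, against 13.1% higher, 13% lower and 26.2% either way of all assembled genes with Maqu reads, or 7.76% higher, 9.56% lower and 17.3% either way of those with an annotation text. By depth, 5 of 30 channel names with at least 1000 reads were called (16.7%, against 8.75% of all names at that depth), 6 of 34 with 100 or more reads but under 1000 (17.6%, against 22.0%) and 5 of 15 with fewer reads (33.3%, against 34.4%).

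**Figure D1:**
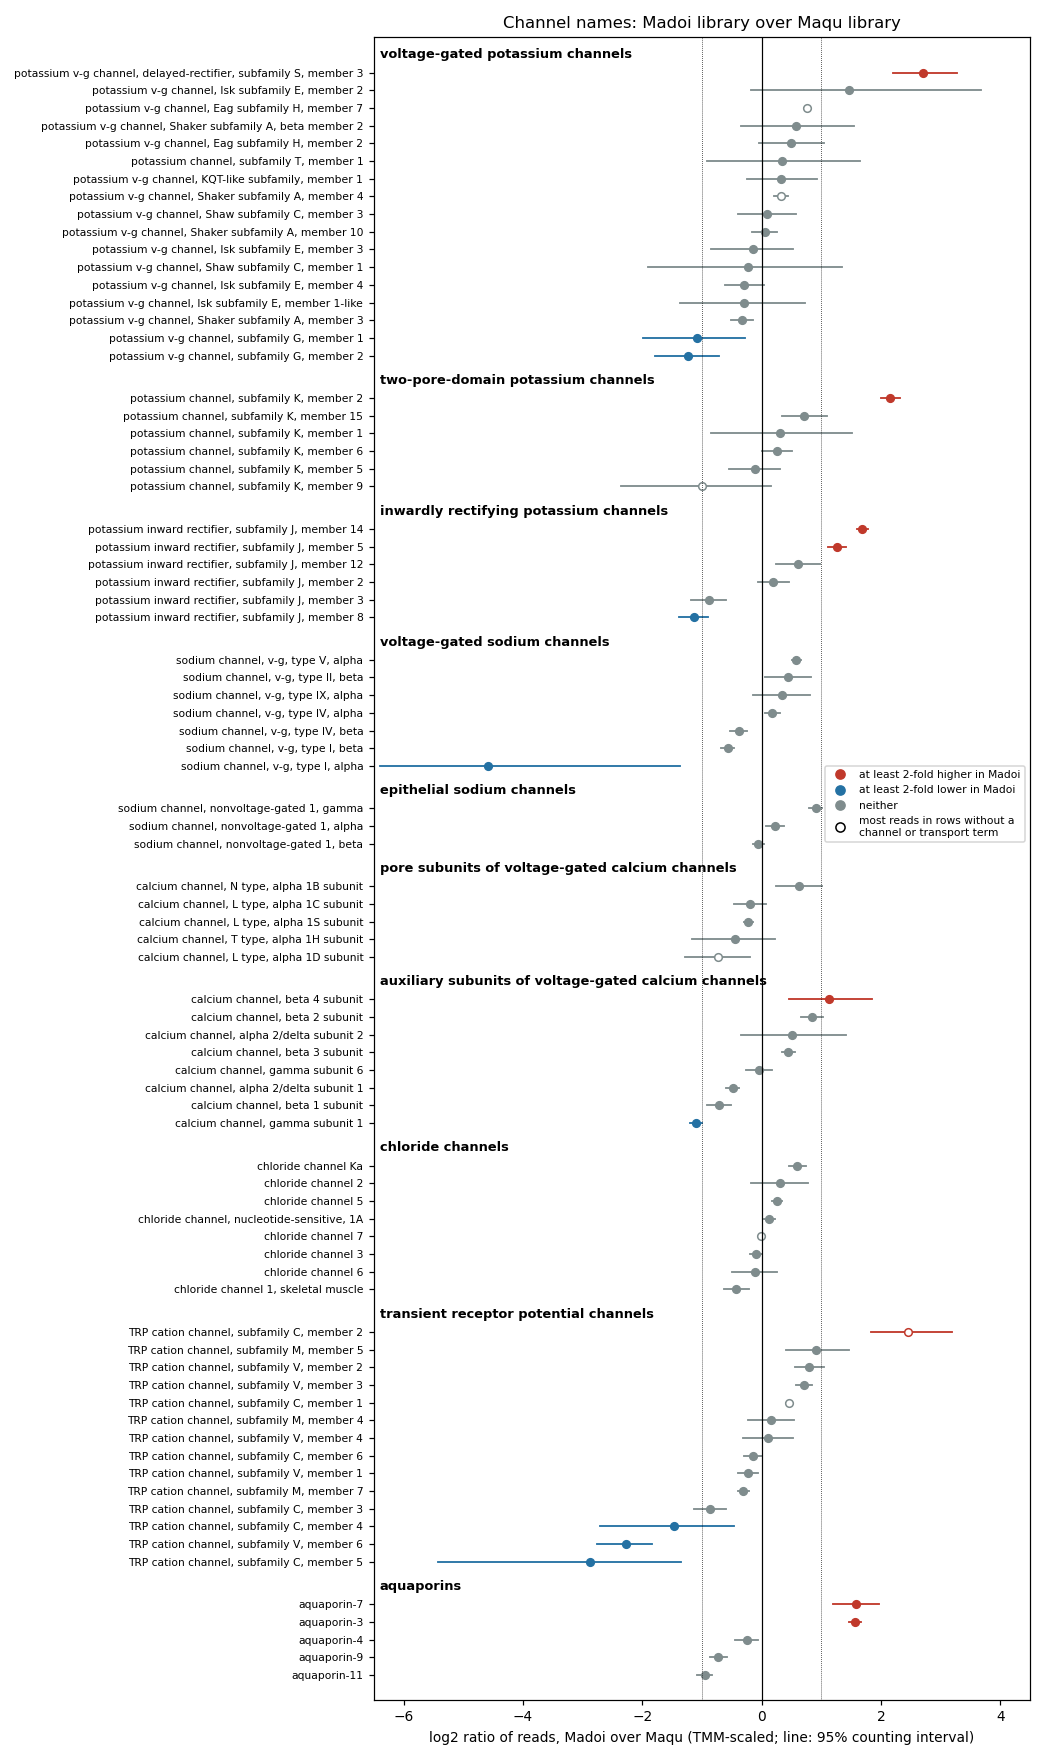
Log2 ratio of reads (x axis, Madoi over Maqu) for all 79 channel names by family, with lines for the 95% counting interval and dotted lines at 2-fold. Red marks the 8 names called higher, blue the 8 called lower, grey the others, and hollow points names with most reads in assembled genes without the channel or transport terms sought; the interval of the lowest sodium channel name has no lower end and is drawn to the edge.

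**Figure D2:**
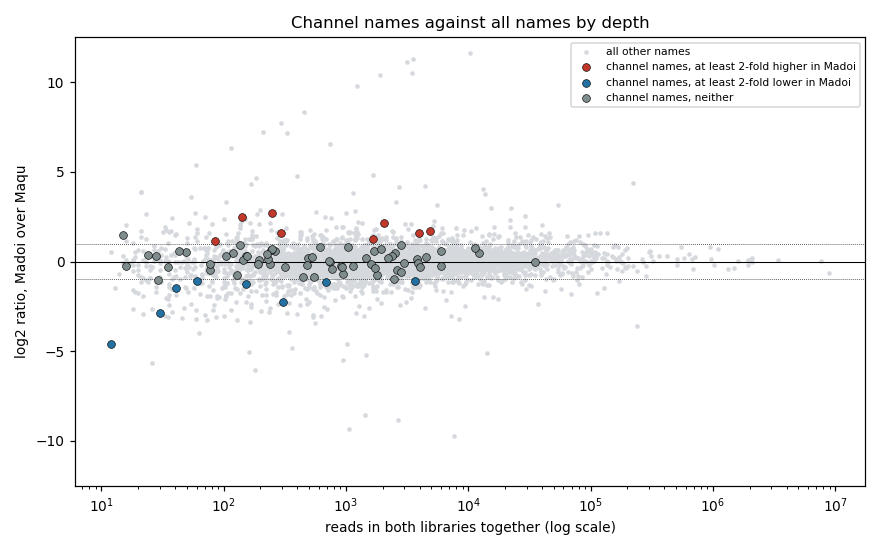
Log2 ratio (y axis, Madoi over Maqu) against reads in both libraries together (x axis, log scale) for channel names (large points) and all other names (small grey points). Among channel names with at least 1000 reads, 4 lie above the upper dotted 2-fold line in red and 1 below the lower one in blue.

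The annotation text was set against the other annotation columns of the same row, a check added after the values were seen. The terms sought were channel activity, channel complex, transporter, antiporter, water or chloride transport in the Gene Ontology text, or ion transport as the KOG class. For names that begin with aquaporin, KOG class G (carbohydrates) was counted too, so that there the name itself entered the check. Aquaporin-3 and aquaporin-4 rested on the KOG class alone. These terms stood in 113 of the 133 assembled genes. The other 20, under 8 names, had none of the terms sought, and they held 34.6% of the channel reads in Madoi and 34.3% in Maqu. Of these, 9 had other Gene Ontology text and 11 had no Gene Ontology text. The other text of 1 of the 9, an assembled gene of Eag-related subfamily H member 7, included calcium channel regulator activity. For 4 names no assembled gene had such a term: calcium channel L type alpha 1D, potassium channel subfamily K member 9, potassium voltage-gated channel Shaker-related subfamily A member 4 and transient receptor potential channel subfamily C member 2. Whether these rows are channels of the lizard was not tested, and this touches the values of these 8 names. Without these rows, 7 names were higher and 8 lower of 75, and the median stayed at 0.11.

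Assembled genes with 0 reads in Maqu were kept apart from the counts above. In all, 1 of 133 channel assembled genes (0.752%) was of this kind, while 2920 of 14472 annotated assembled genes (20.2%) were. The 6 assembled genes left out by name had been taken from the channels beforehand, and no names were left out of the 14472. The shares are therefore not fully alike. The channel assembled gene with 0 Maqu reads was a 625-base copy of potassium channel subfamily K member 6, a leak channel, with 170 Madoi reads against 0 Maqu reads. Its counting interval put it at least 49.2-fold higher in Madoi (61.2-fold with Maqu set at a limit of 3 counts), and whether it is lizard RNA was not tested. The other copy of that name, 1413 bases long, had 278 Madoi reads against 252 Maqu reads.

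Per length, the 5 highest levels among rows with a channel or transport term, by the mean of both libraries, belonged to a calcium channel subunit, a pair of chloride channel names and a pair of epithelial sodium channel subunits. The calcium channel gamma subunit 1, a subunit of the skeletal muscle calcium channel, had 13.84 RPKM in Madoi and 30.85 in Maqu. Nucleotide-sensitive chloride channel 1A, a cytosolic protein linked to cell volume control, stood at 21.72 and 20.65 RPKM in Madoi and Maqu. Chloride channel 3, a protein of endosomes, had 22.82 RPKM in Madoi and 14.23 in Maqu. Its reads differed the other way, with 1375 in Madoi and 1583 in Maqu, so no direction is given for it. The gamma and beta subunits of the epithelial sodium channel had 20.03 and 14.28 RPKM in Madoi, against 11.05 and 15.48 in Maqu. Over the longest assembled gene of each of the 79 names the mean of both libraries ranged from 0.67 to 26.3 RPKM. Shorter assembled genes could stand above this range. One of chloride channel 7, without the terms sought, had 110.88 RPKM in Madoi and 115.75 in Maqu. The 26.3 belonged to potassium voltage-gated channel Eag-related subfamily H member 7, on a row whose Gene Ontology terms are cytosol and calcium ion binding.

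**Figure D3:**
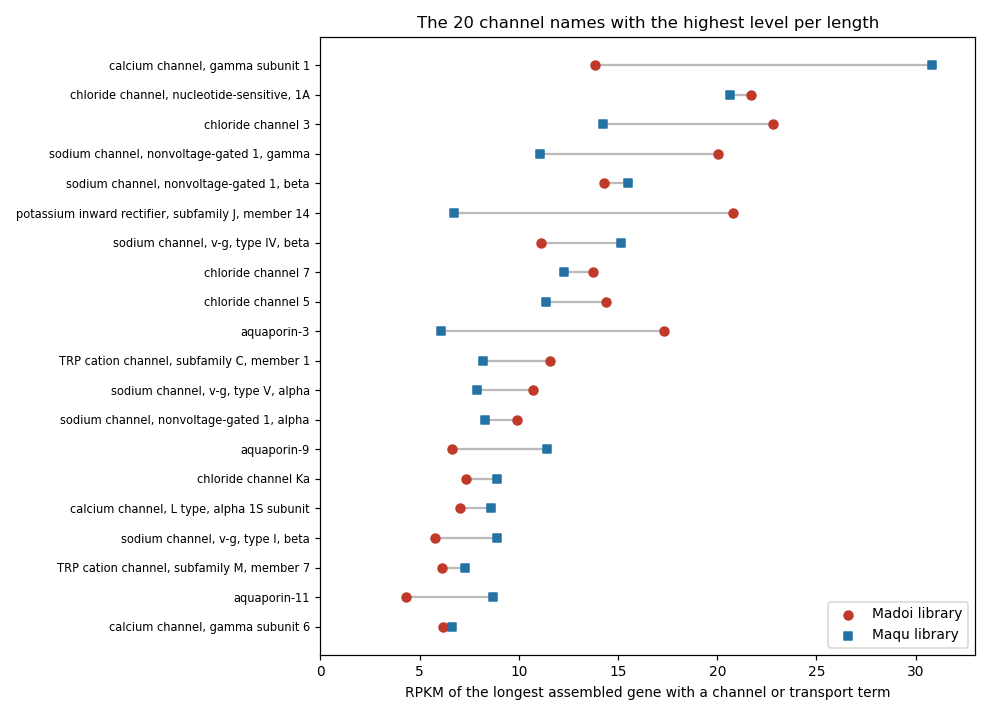
RPKM (x axis, linear) in the Madoi (red circles) and the Maqu library (blue squares) for the 20 channel names with the highest mean level, taken from the longest assembled gene with a channel or transport term. Inward rectifier subfamily J member 14 and aquaporin-3 lie far to the right in Madoi, and calcium channel gamma subunit 1 in Maqu. For chloride channels 3, 7 and Ka the reads of the row drawn differ in the opposite direction to its RPKM.

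Inwardly rectifying potassium channels pass potassium more easily into the cell than out and hold the resting potential. Of 6 names, 2 were higher and 1 lower in Madoi. Subfamily J member 14, a strong rectifier, had 3676 reads (20.81 RPKM) in Madoi and 1231 reads (6.71 RPKM) in Maqu, 3.22-fold higher with an interval from 3.02 to 3.44. Member 5, which in mammals pairs with member 3 in the acetylcholine-sensitive channel of the atrium, had 1151 Madoi reads against 519 Maqu reads, 2.39-fold higher. Its partner, member 3, lay on the other side, with 148 Madoi reads against 295 Maqu reads, a log2 ratio of -0.88 (-1.18 to -0.60) that did not reach 2-fold. All 3 assembled genes of member 3 were below 0, from -2.84 to -0.62, the lowest of them with 4 Madoi reads against 34 Maqu reads. Member 8, the pore of ATP-sensitive potassium channels in vessels, had 205 Madoi reads against 488 Maqu reads, 2.20-fold lower (1.87 to 2.61). Members 12 and 2, which stabilise the resting potential of muscle and heart, stood at 0.61 and 0.19.

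The sulfonylurea receptors are the regulatory partners of the ATP-sensitive channels. ATP-binding cassette subfamily C member 8 had 2734 Madoi reads against 1213 Maqu reads and was called higher, at a log2 ratio of 1.28. Its relative member 9, the form of heart and smooth muscle, had 2640 and 2552 in Madoi and Maqu, a ratio of 0.16. Which receptor pairs with inward rectifier member 8 in these tissues was not tested. Heart markers (7 names) centred on a median of 0.50, with 2 higher and 0 lower and a range from -0.42 to 1.23. Summed, they reached 1940 CPM (reads scaled by library size alone) in Madoi against 1214 in Maqu, and their part in these ratios was not tested.

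Leak potassium channels of subfamily K are open at rest and lower excitability. Of 6 names 1 was called. Member 2, a mechanically and thermally sensitive leak channel in mammals, had 1643 reads (7.88 RPKM) in Madoi and 397 reads (1.82 RPKM) in Maqu, 4.46-fold higher (4.001 to 4.997). Members 15, 1, 6 and 5 had log2 ratios of 0.71, 0.31, 0.25 and -0.12. Member 9 had 9 Madoi reads against 20 Maqu reads, a ratio of -1.004 whose interval from -2.36 to 0.16 spanned 0.

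Voltage-gated potassium channels end the action potential. Of 17 names in this group, 1 was higher and 2 lower, and all 3 are silent subunits, which in mammals change the behaviour of other potassium channels and form no channel alone. Delayed-rectifier subfamily S member 3 had 213 Madoi reads against 35 Maqu reads, 6.49-fold higher (4.58 to 9.68). Subfamily G member 2 had 43 Madoi reads against 110 Maqu reads, 2.36-fold lower (1.65 to 3.46). Its assembled gene carried the same assembly component number as that of Shaw-related member 1. Whether these are separate genes was not tested. With 18 Madoi reads against 42 Maqu reads, member 1 of subfamily G was 2.13-fold lower (1.22 to 3.99), and it dropped below 2-fold, to -0.94, with a pseudocount of 5 reads. These are low counts, with 1.46, 2.08 and 1.30 RPKM as the mean of both libraries.

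None of the other voltage-gated potassium channel names was called. Shaker-related subfamily A members 4, 10 and 3 stood at 0.32, 0.05 and -0.33. The assembled gene of member 10 carried the same assembly component number as that of Shaw-related member 3. Whether these are separate genes was not tested. Member 4 of subfamily A rested on 2 rows without the terms sought. The Gene Ontology text of the smaller row held nucleus and transcription factor activity. For the larger, with 928 Madoi reads against 866 Maqu reads, it held cytoplasm, nucleus and protein phosphatase inhibitor activity. Member 1 of the KQT-like subfamily, a repolarising channel of the heart, had 56 Madoi reads against 48 Maqu reads. The accessory Isk-related subfamily E members 2, 3, 1-like and 4 had 11, 35, 15 and 137 reads in Madoi, against 4, 42, 20 and 181 in Maqu, and the intervals of all 4 spanned 0. The interval also spanned 0 for Shaw-related members 3 and 1, beta member 2 of the Shaker-related subfamily, Eag-related member 2 and the sodium-activated subfamily T member 1, whose ratios ranged from -0.24 to 0.57. Eag-related member 7 had 6891 Madoi reads against 4400 Maqu reads, of which 17 in Madoi and 15 in Maqu came from the assembled gene with one of the terms sought. The assembled gene with calcium channel regulator activity held 2148 Madoi reads against 1915 Maqu reads.

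Of 7 voltage-gated sodium channel names, 0 were higher and 1 was lower, and the other 6 lay within 2-fold. Type V alpha, the sodium channel of the heart, had 3504 reads (10.73 RPKM) in Madoi and 2525 reads (7.89 RPKM) in Maqu, a log2 ratio of 0.58 (0.51 to 0.66). Its 3 assembled genes lay close together, from 0.45 to 0.59. Type IV alpha, the sodium channel of skeletal muscle, had 1136 Madoi reads against 1083 Maqu reads, a ratio of 0.18 (0.06 to 0.30). The beta subunits, which anchor and tune the channel, stood at 0.44 for type II, -0.39 for type IV and -0.57 for type I. Type IX alpha, a channel of sensory neurons, had 83 Madoi reads against 71 Maqu reads. Type I alpha, a channel of neurons, had 0 Madoi reads against 12 Maqu reads on a 202-base fragment. Its counting interval put it at least 2.57-fold lower (3.71-fold with Madoi set at the limit of 3 counts).

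The epithelial sodium channel takes up sodium at the surface of the lung and other epithelia and is built of alpha, beta and gamma subunits. None of the 3 subunits reached 2-fold. The gamma subunit had 1801 Madoi reads against 1037 Maqu reads, a log2 ratio of 0.91 (0.80 to 1.02), and its 2 assembled genes stood at 0.91 and 0.84. For the alpha subunit there were 761 Madoi reads against 705 Maqu reads, and for the beta subunit 1836 in Madoi and 2066 in Maqu, with ratios of 0.22 and -0.06. Among the 5 texts sought for lung epithelium markers, 3 had a match. Lung epithelium markers (4 names) centred on a median of -1.06, with 0 higher and 2 lower and a range from -1.38 to -0.00. The sum was 509 CPM in Madoi, against 898 CPM in Maqu, and their part in the sodium channel ratios was not tested.

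Voltage-gated calcium channels consist of an alpha 1 pore with auxiliary beta, alpha 2/delta and gamma subunits. Of 5 pore names, 0 were called. The alpha 1S pore, the voltage sensor of skeletal muscle, had 2627 Madoi reads against 3315 Maqu reads, a log2 ratio of -0.23 (-0.30 to -0.15). The alpha 1C pore, the L type channel of heart and smooth muscle, stood at -0.20 with 216 and 267 reads in Madoi and Maqu. The T type alpha 1H had 31 Madoi reads against 46 Maqu reads. The L type alpha 1D had 46 Madoi reads against 83 Maqu reads, on a row whose Gene Ontology terms concern small GTPases. The N type alpha 1B pore of neurons, at 0.62, had 4 assembled genes that ranged from -0.57 to 1.08, with intervals that did not all overlap.

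Among the 8 auxiliary names, 1 was higher and 1 lower. Gamma subunit 1 had 1115 Madoi reads against 2582 Maqu reads, 2.15-fold lower (2.00 to 2.30). The subunits that in mammals sit with it in the skeletal muscle channel also had fewer reads in Madoi, though none reached 2-fold. Beta 1 had 340 Madoi reads against 602 Maqu reads, a ratio of -0.71 (-0.91 to -0.52), and alpha 2/delta subunit 1 had 1038 and 1573 in Madoi and Maqu, a ratio of -0.49 (-0.60 to -0.38). Both assembled genes of beta 1, and both of alpha 2/delta 1, were below 0. Chloride channel 1, which sets the resting conductance of skeletal muscle, stood at -0.42 with 316 Madoi reads against 458 Maqu reads. The sodium channel of skeletal muscle, type IV alpha, lay on the other side of 0, at 0.18 (0.06 to 0.30). Among the 9 texts sought for fast skeletal muscle markers, 5 had a match. Fast skeletal muscle markers (5 names) centred on a median of 0.16, 0 of them called, with a range from -0.23 to 0.80. The sum was 15137 CPM in Madoi, against 10855 CPM in Maqu. Creatine kinase held 585304 Madoi reads against 362470 Maqu reads of this sum, at a log2 ratio of 0.80. Without creatine kinase the other 4 names summed to 361834 Madoi reads against 370568 Maqu reads, not scaled for library size. After scaling, equal reads in both libraries give a log2 ratio of 0.11. Troponin C stood at 0.41, fast troponin T at 0.16, fast troponin I at -0.05 and ryanodine receptor 1 at -0.23. The part of these markers in the subunit ratios was not tested. This grouping of muscle subunits was made after the values were seen.

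The beta 2 subunit, the main beta subunit of the heart channel, had 652 Madoi reads against 394 Maqu reads, a log2 ratio of 0.84 (0.65 to 1.02). Beta 3 stood at 0.45 with 1408 Madoi reads against 1114 Maqu reads. The one higher name was beta 4, a subunit known from brain, with 57 Madoi reads against 28 Maqu reads, 2.18-fold higher (1.37 to 3.59). Its 467-base assembled gene carried the same assembly component number as both assembled genes of beta 2, which stood at 0.71 and 0.85. Whether it is a gene apart from beta 2 was not tested. Gamma subunit 6 and alpha 2/delta subunit 2 had intervals that spanned 0.

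Markers of neurons and glia, which are not among the pooled tissues by label, had the highest median of the marker lists. Over 12 names they had a median of 1.49, with 7 higher and 1 lower and a range from -1.87 to 5.38. Of all names with Maqu reads, 5.89% were higher and 7.15% lower. The lowest and the highest name of that range had under 100 reads over both libraries. Gamma-aminobutyric acid A receptor gamma 2 had 1588 Madoi reads against 61 Maqu reads. Neurofilament light polypeptide, a protein of axons, had 1067 Madoi reads against 82 Maqu reads, and glial fibrillary acidic protein 58 in Madoi and 1 in Maqu. On the other side, glutamate decarboxylase was called lower with 7 Madoi reads against 29 Maqu reads. Myelin protein zero, not called, had 1856 in Madoi and 2604 in Maqu. The summed level of the list was nearly equal, at 229 CPM in Madoi and 230 CPM in Maqu, with contactin 4, a neuronal adhesion protein, holding 8450 of the reads in Madoi and 12318 in Maqu. Of the 18 texts sought for this list, 8 had a match. Among the channels of neurons, sodium channel type I alpha was called lower, with 0 Madoi reads against 12 Maqu reads. Sodium channel type IX alpha was not called, at 0.33 (-0.14 to 0.81). The part of the neuron and glia markers in the ratios of these sodium channels was not tested. Nor was it tested for beta 4, the N type pore and the potassium channels called higher.

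Chloride channel names were all within 2-fold. Of 8 names, 7 lay within 1.5-fold. Chloride channel 7, which works in lysosomes, had 12 assembled genes with 16677 Madoi reads against 18246 Maqu reads, a log2 ratio of -0.02. Only 1 of the 12 had a channel term, with 1691 Madoi reads against 1888 Maqu reads, and the other 11 ranged from -0.58 to 0.62. Chloride channels 5 and 6, of endosomes and lysosomes, stood at 0.25 and -0.12, chloride channel 2 at 0.30 and nucleotide-sensitive 1A at 0.13.

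For 4 assembled genes with a gap of more than 0.2 between them, all of chloride channels, the log2 ratios from reads and from the authors' RPKM had opposite signs. Chloride channel 3 had 1375 reads (22.82 RPKM) in Madoi and 1583 reads (14.23 RPKM) in Maqu, with log2 ratios of -0.09 from reads and 0.73 from RPKM. Chloride channel Ka, known from kidney, had 990 reads (7.35 RPKM) in Madoi and 707 reads (8.91 RPKM) in Maqu, with ratios of 0.60 and -0.23. These rows joined 7 and 2 assembled transcripts. The other two were of chloride channel 7, among them its assembled gene with a channel term, at -0.05 from reads and 0.21 from RPKM, and one at 0.19 from reads and -0.20 from RPKM. Among channel rows with more than 20 reads in each library, 6 of 25 with several transcripts had a gap of more than 0.2 between both log2 ratios, and 0 of 77 with 1 transcript. A direction is therefore not given for chloride channels 3, 7 and Ka.

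Transient receptor potential channels are cation channels that respond to temperature, stretch, lipids or chemical signals. Of 14 names, 1 was higher and 3 were lower. Subfamily V member 6, which takes calcium up across epithelia, had 49 reads (0.49 RPKM) in Madoi and 259 reads (2.51 RPKM) in Maqu, 4.86-fold lower (3.60 to 6.79). Subfamily C members 4 and 5, receptor-activated calcium entry channels, were lower on few reads, with 10 and 3 in Madoi against 31 and 27 in Maqu. Their ratios were -1.48 (-2.72 to -0.46) and -2.87 (-5.42 to -1.36). Member 3 of the same subfamily stood at -0.86 with 183 Madoi reads against 360 Maqu reads, and all 4 of its assembled genes were below 0, from -1.56 to -0.25. Member 6 had nearly equal reads, 736 in Madoi and 879 in Maqu, at -0.15.

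The one name called higher, subfamily C member 2, a pheromone channel in rodents, had 119 Madoi reads against 23 Maqu reads, 5.48-fold higher (3.55 to 9.15). The Gene Ontology text of that row held damaged DNA binding and single strand break repair, and whether its reads belong to the channel was not tested. Subfamily C member 1 stood at 0.46 with 6875 Madoi reads against 5392 Maqu reads. Its assembled gene with a channel term had a ratio of 0.56, with 3452 Madoi reads against 2529 Maqu reads.

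Among the temperature-responsive members, subfamily V members 3 and 2 had ratios of 0.71 (0.58 to 0.85) and 0.80 (0.56 to 1.04). Member 1 of this subfamily, the heat and capsaicin receptor of sensory neurons in mammals, had 503 Madoi reads against 635 Maqu reads, at -0.23. Member 4, which responds to warmth and swelling, had 97 reads in each library. Subfamily M member 5, a channel of taste cells, stood at 0.91 with 86 and 49 reads in Madoi and Maqu. Members 4 and 7, of which the second carries a kinase and passes magnesium, stood at 0.16 and -0.31. The assembled gene of member 5 carried the same assembly component number as an assembled gene of member 4. Whether these are separate genes was not tested.

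Aquaporins were found on both sides of 0. Of 5 names, 2 were higher and 0 lower. Aquaporin-3, which passes water and glycerol in epithelia, had 2899 reads (17.31 RPKM) in Madoi and 1057 reads (6.08 RPKM) in Maqu, 2.96-fold higher (2.76 to 3.18). Aquaporin-7, the glycerol channel of fat cells in mammals, had 216 Madoi reads against 78 Maqu reads, 2.98-fold higher (2.30 to 3.92), and its 2 assembled genes stood at 1.56 and 1.64. Aquaporin-9, through which the mammalian liver takes up glycerol, had 644 reads (6.62 RPKM) in Madoi and 1152 reads (11.40 RPKM) in Maqu, a ratio of -0.73 (-0.87 to -0.59). For aquaporin-11, an intracellular member, 798 Madoi reads stood against 1668 Maqu reads, at -0.95 (-1.08 to -0.83), which passed 2-fold when scaled by library total (-1.002), and aquaporin-4, a water channel of muscle and glia, stood at -0.25. Liver markers (9 names) centred on a median of -0.60, with 1 higher and 2 lower and a range from -2.39 to 1.23. The sum was 2705 CPM in Madoi, against 3845 CPM in Maqu, and their part in the ratios of aquaporin-9 and aquaporin-11 was not tested.

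Assembled genes that share a name were set side by side, though they share the same RNA and were not shown to be 1 gene. Of 29 names with several assembled genes, 22 had all of them on one side of 0 and 7 had both signs. The counting intervals of all assembled genes overlapped for 21 names and separated for 8. Among the 8 were chloride channel 7, Eag-related member 7, Shaker-related member 4 and transient receptor potential subfamily C member 1. Each of these holds rows without the terms sought. The others were the N type alpha 1B pore, inward rectifier subfamily J member 3, and transient receptor potential subfamily C member 3 and subfamily V member 1. All rows of these others had one of the terms sought. The counts were not set against other names with several assembled genes. Under 0 names was 1 assembled gene called higher and another called lower.

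**Figure D4:**
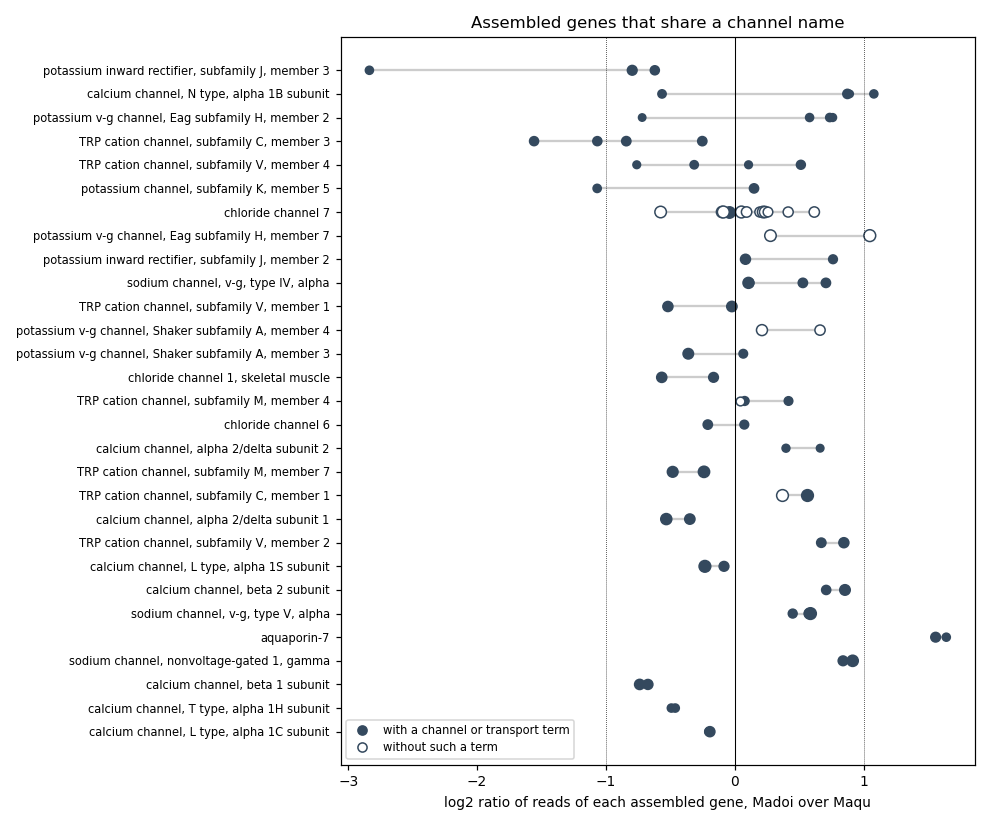
Log2 ratio (x axis, Madoi over Maqu) of each assembled gene, for the 29 channel names with several, ordered by their range; point size grows with the log of reads, and hollow points have no channel or transport term. The 2 assembled genes of aquaporin-7 lie together beyond the 2-fold line, while those of chloride channel 7 straddle 0.

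Partner genes of the channels, from lists of text patterns, were mostly within 2-fold. Of 34 names, 4 were higher and 1 lower, with a median of 0.09, while 5.89% of all names were higher and 7.15% lower. Of the 14 texts sought for calcium release and uptake, 4 had a match. Phospholamban and ryanodine receptors 1 and 2 stood in the marker lists too. Calcium release and uptake proteins (9 names) centred on a median of -0.42, 0 of them called. The calcium release channel of skeletal muscle, ryanodine receptor 1, stood at -0.23 and that of the heart, ryanodine receptor 2, at 0.26, and the lowest was inositol 1,4,5-triphosphate receptor type 3 at -0.91. Exchangers, cotransporters and the sodium-potassium pump (6 names) centred on a median of 0.10, 0 of them called. For this list, 4 of the 6 texts sought had a match. The pump's alpha subunit, which restores the gradients the channels use, had 27637 Madoi reads against 28221 Maqu reads, at 0.08, and the extremes of the list were solute carrier family 9 members 1 at 0.40 and 6 at -0.37. Among the 13 texts sought for other channels, 5 had a match. Other channels (17 names) centred on a median of 0.14, with 3 higher and 1 lower. Gap junction protein beta 5 at 1.49 was the highest of these with at least 100 reads, and gap junction protein alpha 9 at -1.01 the lowest.

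**Figure D5:**
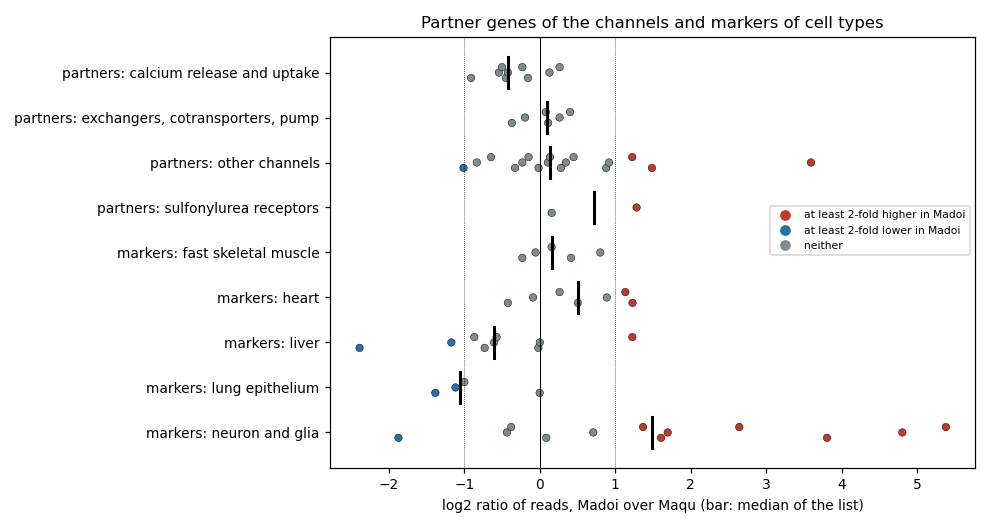
Log2 ratio (x axis, Madoi over Maqu) of the names in each partner and marker list, with a black bar at the list's median; red and blue mark names called higher and lower in Madoi. Neuron and glia markers have the highest median at 1.49 and lung epithelium markers the lowest at -1.06.

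In the pathway column of the file, 11 channel names carried cardiac muscle contraction, all of them pore or auxiliary subunits of voltage-gated calcium channels. Of these 1 was higher and 1 lower, with a median log2 ratio of -0.20. For calcium signaling the median was -0.21 over 6 names with 0 called, and for taste transduction 0.62 over 5 names with 0 called. Aldosterone-regulated sodium reabsorption held the 3 epithelial sodium channel subunits, with a median of 0.22.

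In the authors' deposited table, 4 of the 133 channel assembled genes (3.01%) carried a mark of significance, of which 3 were higher in Madoi and 1 was lower. Over all assembled genes the authors' deposited table marked 10.4%, and 3.18% of those with Maqu reads. The channel share counts an assembled gene with 0 Maqu reads, a kind that the 3.18% leaves out. The 4 in the authors' deposited table were aquaporin-3, calcium channel gamma subunit 1, the copy of potassium channel subfamily K member 6 with 0 reads in Maqu, and inward rectifier subfamily J member 14. Their FDR in the authors' deposited table ranged from 0.123 to 0.406, so that the mark does not stand for a low FDR.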

How the data were processed

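RNA from 4 tissues of adult lizards was pooled into 1 library per population. The labels do not say how many animals were pooled. The authors assembled transcripts with Trinity and used BLAST, per the series' design text; for the counting tool, the test and all versions the sources used here give nothing. The deposited expected counts are the authors' estimated reads per assembled gene, not whole numbers, and were rounded. The deposited RPKM are the authors' values, and the log2 ratios, p-values and FDR deposited by the authors were used only where their table is named.

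Library sizes were scaled by TMM in edgeR 4.0.16 over the whole table, the factors being 0.983 (Madoi) and 1.02 (Maqu). For ratios, 0.5 reads were added as a pseudocount. Intervals are exact Clopper-Pearson 95% intervals of the Madoi share of reads. Reads of assembled genes with the same annotation name were summed where Maqu had reads. No p-value was computed, since there is 1 library per population. The calculation was checked on simulated counts that held counting error only. Such counts cannot show whether the calls would hold for other animals or other tissue shares. DESeq2 1.42.0 size factors were an alternative.

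Members and lists were chosen with earlier results of these data known. Names given one by one followed a rule: every call with at least 50 reads, the 2 highest and 2 lowest ratios per family with at least 100 reads, and the 10 highest levels. The other channel names were added so that each member is accounted for. From the lists, 5 texts that matched a pattern but name another protein were left out after they were seen.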

Additional observations from a re-analysis of the deposited data

How the results depend on the processing

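No paired analysis was possible because there is 1 library per population, and for the same reason no library could be left out. Under the alternative scalings, filters, pseudocount, ways of joining rows and call rules that were run, 0 called names changed direction. Most of these settings could not turn the sign of a name that differed by 2-fold or more. This count is therefore no measure of robustness. The sign did change for 3 uncalled names: chloride channel 3 (0.73) and chloride channel Ka (-0.23) from RPKM, and potassium channel subfamily K member 5 (0.15) from its most-read assembled gene. It also changed for 2 family medians, auxiliary calcium channel subunits (-0.05) with a filter of 50 reads, and transient receptor potential channels with that filter (0.13) and with the most-read assembled gene of each name (0.03). A filter of 50 reads in place of 10 left 7 assembled genes and 5 names lower. A threshold of 4-fold left 3 assembled genes higher and 4 lower, and 3 names higher and 3 lower. The shares of all names and all assembled genes called at these settings are not given here. These counts therefore do not set channels apart from the rest. Of 538 values for 45 names under the alternatives, 522 kept their direction and their side of the threshold. These names were chosen partly for their reads, so the changed read filters could not move them. The count of 522 is therefore no measure of robustness. At 4-fold, 9 of the 45 names were no longer called. Potassium channel subfamily G member 1 was not called with a pseudocount of 5 reads, at -0.94. Aquaporin-11 was called lower when scaled by library total, at -1.002, inward rectifier subfamily J member 3 was called lower from RPKM, at -1.04, and Eag-related subfamily H member 7 was called higher from its most-read assembled gene, at 1.05. The cause of these changes was not tested. The use of rows with a channel or transport term, and of RPKM, was chosen after seeing the data. Names with few reads, such as those with under 100, have intervals too wide to show a 2-fold difference in many cases.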
